A study of Mus musculus with 20 samples.

Results

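The RNA of 7 genes that act as negative feedback on MAP kinase signalling was followed in LSK and MEP cells of mice with a knockout of Bcor, Dnmt3a or both. The genes were 2 Sprouty genes (Spry1 and Spry2), 2 Spred genes (Spred1 and Spred2) and 3 dual specificity phosphatase genes (Dusp4, Dusp5 and Dusp6), out of 24315 genes in each of the 2 deposited tables. They were selected on measured values, namely that Spry1 is lower in Bcor-/- and in Bcor-/-Dnmt3a-/- LSK than in WT LSK, and the other 6 genes were added as members of the same families or pathway. The values of all 7 genes in those 2 LSK comparisons are therefore given as a description, with no test.

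Growth factor and cytokine receptors of blood progenitors, such as Kit, Flt3 and the erythropoietin receptor, signal through Ras, Raf, MEK and ERK. Sprouty and Spred proteins restrain this route between the receptor and Raf, Spred proteins by bringing the Ras inactivating protein neurofibromin to the membrane, while Dusp4, Dusp5 and Dusp6 are phosphatases that switch off MAP kinases. Many of these inhibitors are themselves induced by ERK activity, so that the pathway limits its own output.

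LSK (Lin-Sca1+Kit+) cells hold the stem and multipotent progenitor cells of the bone marrow (BM), and MEP are the progenitors of megakaryocytes and erythroid cells. Both were sorted from C57BL/6 mice of 4 genotypes, and polyA RNA was sequenced. For each cell type there were 3 libraries of WT mice, which carried untargeted genes, 3 of Dnmt3a-/-, 2 of Bcor-/- and 2 of Bcor-/-Dnmt3a-/- (double knockout) mice. The knockouts were conditional and driven by Mx1-Cre, an interferon inducible recombinase that is switched on by pIpC and acts in blood stem cells but also in other tissues. The library names carry Cre for every mutant library and for no WT library. Cre therefore goes with genotype in every comparison with WT, and its part was not tested. BCOR is a subunit of a Polycomb repressive complex that binds CpG rich promoters, and DNMT3A is a DNA methyltransferase. LSK and MEP of a mouse were both sequenced, and the label of 1 Bcor-/- library per cell type names 2 mice. The labels give neither the age nor the disease stage. The study, which concerns acute erythroid leukemia, describes the double knockout mice of these comparisons as leukemic and the Dnmt3a deletion as only partial in Dnmt3a-/- mice. The names of the 2 double knockout mice differ in their final letter from all others, so that genotype, leukemia and any difference in handling cannot be told apart.

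The sorted populations did not carry the same markers in every genotype. Levels are in FPKM, a read density corrected for transcript length and library size. The summed FPKM of 12 LSK gate and stem cell genes was 1306 to 1542 in WT LSK, 1422 to 1542 in Dnmt3a-/-, 665.3 to 987.5 in Bcor-/- and 186.1 to 397.4 in double knockout LSK. In the same libraries 12 erythroid genes summed to 130.3 to 246.9, 204.4 to 215.3, 606.7 to 998.8 and 6086 to 21058 FPKM, and 7 B lymphoid genes to 1122 to 3419 FPKM in double knockout LSK against at most 99.99 FPKM elsewhere. In MEP, 9 granulocyte genes summed to 6791 to 15268 FPKM in double knockout mice and to at most 1068 in the other genotypes, while 12 erythroid genes summed to 5300 to 69794 FPKM against 3965 to 5625 in WT MEP. In double knockout LSK 5 of 8 megakaryocyte genes fell and none rose (17.8 to 72.1 FPKM summed, against 163.9 to 203.8 in WT), and of 6 T and NK genes 5 rose and 1 fell, though their sum of 95.4 to 311.4 FPKM overlapped with the 211.4 to 232.8 of WT. Of the 12 LSK gate and stem cell genes 10 fell in double knockout LSK and none rose. Slamf1 and Ly6a, the gene of Sca1, were not among them, and Ly6a had 63.5 to 220.2 FPKM against 59.8 to 70.7 in WT. Cd34 made up much of the WT sum, with a mean of 582.9 FPKM in WT and 21.6 in double knockout LSK. In that comparison 15% of all genes rose and 13.3% fell. The 7 macrophage genes summed to 60.1 to 1581 FPKM there and to 41.8 to 304.6 in WT LSK. In MEP the megakaryocyte sum was 21.2 to 76.3 against 90.5 to 358.1 FPKM in WT, that of B lymphoid genes 121.8 to 2795 against 30.4 to 174 and that of T and NK genes 90.2 to 136.6 against 32.5 to 67.9. Cd8a was at 0 in every Dnmt3a-/- MEP library, and no other gene of these lists was at 0 in every library of a genotype in either cell type. Granulocyte genes also moved in Bcor-/- LSK, with 17665 to 25288 FPKM against 3486 to 13310 in WT, and in Dnmt3a-/- LSK they summed to 2576 to 3913 FPKM. The part of these shifts in the results below was not tested, and in sorted cells measured in bulk, a change in the cells that make up a gate cannot be told apart from a change in RNA per cell. The 2 double knockout libraries also resembled each other less (Pearson r across genes of 0.849 in LSK and 0.815 in MEP) than replicates of the other genotypes, whose lowest r was 0.973 in LSK and 0.971 in MEP. Of the deleted genes, Bcor had 22.4 to 23.2 FPKM in Bcor-/- LSK, 24.0 to 37.4 in double knockout LSK and 29.5 to 32.4 in WT LSK, and in MEP 19.5 to 22.4, 19.6 to 26.7 and 21.3 to 26.9 FPKM. Bcor was thus lower in Bcor-/- LSK but overlapped with WT in double knockout cells and in Bcor-/- MEP. The study describes the transcript left by the deletion as polyadenylated but unstable, and these values do not show its loss, so the genotypes used here are those of the labels and were not checked by Bcor RNA. Dnmt3a had 11.3 to 16.9 FPKM in Dnmt3a-/- LSK and 10.4 to 10.9 in double knockout LSK, against 16.1 to 19.8 in WT LSK, and in MEP 2.56 to 5.40, 3.44 to 6.85 and 5.49 to 6.64 FPKM. Dnmt3a thus overlapped with WT in Dnmt3a-/- LSK and in double knockout MEP, and was below WT in every library of double knockout LSK and Dnmt3a-/- MEP.

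Of the 7 genes, 6 had a RefSeq promoter window (GRCm38.p6), running from 250 bases before to 50 bases after the start site, and all 6 were rich in CpG, the dinucleotide that DNA methyltransferases act on. The windows held 40 CpG at Spred1, 29 at Spry1, 28 at Spry2, 28 at Dusp5, 19 at Dusp6 and 17 at Spred2, against a median of 7 in 32851 windows. Between 68.6% (Spred2) and 96.1% (Spred1) of all windows had fewer. The bases upstream of the annotated transcript start are shown for 3 genes, Spry1, for which the family was chosen, Dusp5, which was furthest below WT in Bcor-/- LSK, and Dusp6, which was high in all 4 double knockout libraries. CpG is in capitals for Spry1 (23 in 250 bases at chr3:37639697-37639946, plus strand) and Dusp6 (16 in 250 bases at chr10:99262981-99263230, plus strand), and in Dusp5 (214 bases at chr19:53528895-53529108, plus strand) the capitals mark a pair of CArG boxes, the sequence bound by serum response factor.
Spry1: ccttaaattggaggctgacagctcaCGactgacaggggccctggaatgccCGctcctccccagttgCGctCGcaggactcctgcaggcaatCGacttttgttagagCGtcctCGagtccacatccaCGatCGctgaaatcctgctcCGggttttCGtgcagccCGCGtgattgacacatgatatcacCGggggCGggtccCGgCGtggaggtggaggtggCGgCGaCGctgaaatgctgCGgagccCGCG
Dusp6: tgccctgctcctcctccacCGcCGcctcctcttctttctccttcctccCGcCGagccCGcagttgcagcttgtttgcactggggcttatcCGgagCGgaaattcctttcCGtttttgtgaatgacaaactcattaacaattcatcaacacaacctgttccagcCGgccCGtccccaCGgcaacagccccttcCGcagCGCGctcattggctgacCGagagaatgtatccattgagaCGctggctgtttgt
Dusp5: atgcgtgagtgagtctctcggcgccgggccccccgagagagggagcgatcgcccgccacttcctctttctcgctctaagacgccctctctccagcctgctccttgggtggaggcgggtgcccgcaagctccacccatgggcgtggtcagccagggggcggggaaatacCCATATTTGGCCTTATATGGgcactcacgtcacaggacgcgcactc
The CArG boxes CCATATTTGG and CCTTATATGG of Dusp5 lie side by side and begin 46 and 36 bases before the transcript start. A CArG box was present in 1.63% of all windows and in none of the other 5 members' windows. In a search of both strands of the 300 base windows, the ETS-type core CCGGAA (14.9% of all windows) was found once, at Spry2, and the CRE core TGACG (20.8%) at Spred2 and Dusp5. The AP-1-type motif TGANTCA (7.81%) and the GATA-type motif AGATAA (11.2%) were in none of the 6 windows. The ETS-type and CRE letters include a CpG. These matches describe the sequence and show no binding.

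In the GENCODE annotation of GRCm38, Spry1 lies at chr3:37639947-37644598 (plus strand), Spry2 at chr14:105891947-105896819 (minus), Spred1 at chr2:117121374-117182279 (plus) and Spred2 at chr11:19924375-20024026 (plus). Dusp4 lies at chr8:34807297-34819894, Dusp5 at chr19:53529109-53542431 and Dusp6 at chr10:99263231-99267489, all on the plus strand. A gene on the opposite strand overlaps Spry1 (Gm42922) and Dusp5 (AC137853.2), and since the use of strand in counting is not stated, their reads cannot be told apart from those of the partner.

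In WT LSK, Dusp6 and Dusp5 had the highest mean FPKM of the 7 genes, with 64.0 ± 10.5 and 58.2 ± 19.6 FPKM (SD, n = 3). Spry1 followed with 22.7 ± 1.73, Spry2 with 20.5 ± 3.12, Spred1 with 18.3 ± 2.17, Spred2 with 11.9 ± 1.14 and Dusp4 with 10.1 ± 2.96 FPKM. The libraries of neighbours in this order overlapped, except between Dusp5 and Spry1 and between Spred1 and Spred2. In WT MEP the order was Dusp6 (16.1 ± 2.31), Spred1 (12.6 ± 2.46), Spred2 (10.02 ± 1.49), Dusp5 (4.85 ± 2.58), Spry2 (4.37 ± 0.43), Spry1 (3.19 ± 0.90) and Dusp4 (0.91 ± 0.52 FPKM), where Spred2 and Dusp5, Spry2 and Spry1, and Spry1 and Dusp4 did not overlap. By the mean, Dusp6 was highest of the 7 in both WT cell types and Dusp4 lowest. The tables of the 2 cell types were made separately, so levels were not tested between them.

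**Figure D1:**
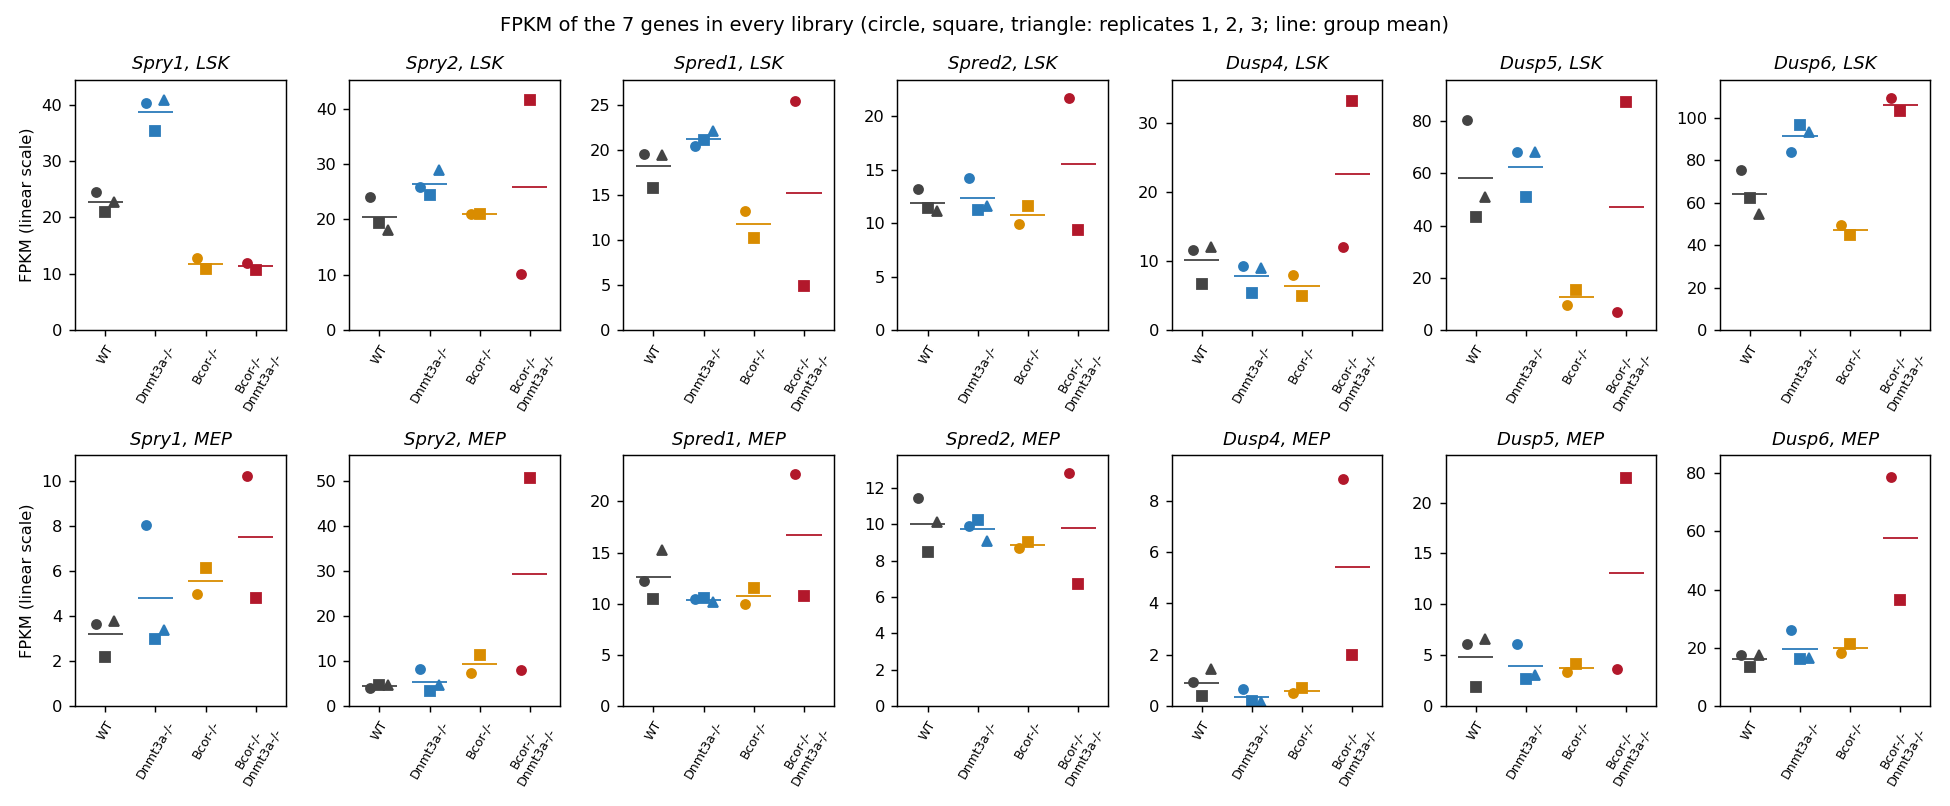
FPKM (linear y axis, 1 panel per gene and cell type) of the 7 genes in each of the 20 libraries, by genotype, with a line at the group mean. Spry1 in LSK sits at 35.3 to 40.8 FPKM in Dnmt3a-/-, 21.0 to 24.4 in WT and 10.7 to 12.8 in the 4 Bcor-/- and double knockout libraries, while the 2 double knockout libraries lie far apart for Spry2 and Dusp5 in both cell types.

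In LSK, Spry1, the receptor tyrosine kinase inhibitor for which the family was chosen, was the only one of the 7 genes called between Dnmt3a-/- and WT. Its FPKM was 24.4, 21.0 and 22.7 in WT and 40.2, 35.3 and 40.8 in Dnmt3a-/- LSK. All Dnmt3a-/- libraries were above all WT libraries. The difference of mean log2(FPKM + 1) was 0.75 ± 0.11 (SE), a 1.68-fold change on that scale, with a limma adjusted p of 0.70. The call was kept when any 1 library was left out, with 0.69 to 0.81, but it rests on the unadjusted p, at which, with a fold change above 1.5, 0.443% of the 11952 genes tested were called (0.209% higher and 0.234% lower). This comparison shares its WT libraries with those by which Spry1 was chosen. In the same comparison 2 of 9 granulocyte genes were called lower, Camp (-1.99 ± 0.58) and Ngp (-1.49 ± 0.58, both with an adjusted p of 1). The median of the 9 was -1.09 against 0.0027 over all genes. None of the 7 macrophage genes was called, though their median was -1.31. Of 7 B lymphoid genes 1 was called higher, Pax5 (0.74 ± 0.30), and their median was 0.54. The part of these shifts in the Spry1 difference was not tested.

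Dusp6, the cytoplasmic phosphatase of ERK, moved less. Its FPKM was 75.3, 62 and 54.6 in WT and 84.0, 96.5 and 93.5 in Dnmt3a-/- LSK. The groups did not overlap, the difference was 0.52 ± 0.13 (limma adjusted p = 1), and the 1.43-fold change was under the fold of 1.5 used for calls. Without WT replicate 1, whose Dusp6 value is the highest of the 3, the difference was 0.64 and would be called. Spry2 (0.36 ± 0.39) and Spred1 (0.21 ± 0.43) were also above WT in every Dnmt3a-/- library, with 24.4 to 28.9 against 18.1 to 24.0 FPKM and 20.4 to 22.1 against 15.8 to 19.6 FPKM, and neither was called. Spred2 (0.04), Dusp4 (-0.32) and Dusp5 (0.14) overlapped with WT. The share of all genes without overlap between these groups was not computed, so the lack of overlap is a description only.

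In Bcor-/- LSK, Spry1 had 12.8 and 10.8 FPKM and in double knockout LSK 12 and 10.7 FPKM. These 4 libraries were all below the lowest WT library, and the genotypes overlapped with each other. The difference from WT was -0.89 ± 0.13 (SE) in Bcor-/- and -0.94 ± 0.13 in double knockout LSK, a level 1.85-fold and 1.92-fold lower on the log2(FPKM + 1) scale, and the double knockout mean was -0.05 ± 0.14 from the Bcor-/- mean. This is the pattern the genes were chosen by.

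Spry2, the close relative of Spry1, did not share it. It had 24.0, 19.4 and 18.1 FPKM in WT LSK, 20.9 and 21.0 in Bcor-/- LSK, and 10.1 and 41.5 in double knockout LSK. The Bcor-/- libraries lay within the WT range and the double knockout libraries on either side of it, with differences of 0.04 ± 0.44 and 0.02 ± 0.44 from WT. The SE is the same in both because it is pooled, although the Bcor-/- libraries were close and the double knockout libraries far apart.

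For Spred1 the values were 19.6, 15.8 and 19.5 FPKM in WT LSK, 13.2 and 10.3 in Bcor-/- and 25.5 and 4.95 in double knockout LSK. Both Bcor-/- libraries were below WT (-0.60 ± 0.48), while double knockout replicate 1 was above every WT library and replicate 2 below (-0.61 ± 0.48). WT libraries had 13.2, 11.4 and 11.1 FPKM of Spred2, compared with 9.90 and 11.5 in Bcor-/- and 21.7 and 9.37 in double knockout LSK. It overlapped with WT in Bcor-/- (-0.14 ± 0.28), and its double knockout libraries again lay on both sides of WT (0.25 ± 0.28).

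Among the phosphatases, Dusp5, which acts on ERK in the nucleus, was furthest from WT in Bcor-/- LSK. Its 3 WT LSK libraries read 80.4, 43.4 and 50.8 FPKM and its Bcor-/- ones 9.80 and 15.3. The highest Bcor-/- library was below the lowest WT library, with a difference of -2.11 ± 0.79, a level 4.30-fold lower. In double knockout LSK Dusp5 had 6.89 and 87.2 FPKM, the lowest and the highest value of all 10 LSK libraries, and the difference of -1.12 ± 0.79 became -2.86 without replicate 2 and 0.63 without replicate 1.

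Dusp6 was lower in Bcor-/- LSK, with 49.3 and 44.8 FPKM (-0.42 ± 0.14), and higher in double knockout LSK, with 109.1 and 103.3 FPKM (0.73 ± 0.14). Neither group overlapped with WT. WT libraries held 11.6, 6.68 and 12 FPKM of Dusp4, a nuclear phosphatase of several MAP kinases, compared with 7.95 and 4.95 in Bcor-/- (-0.56 ± 0.42) and 12 and 33.1 in double knockout LSK (0.96 ± 0.42), with overlap in both comparisons. The double knockout value rests on replicate 2, since it was 0.27 without that library and 1.66 without replicate 1. In all, 3 of the 7 genes (Spry1, Spred1 and Dusp5) differed from WT by more than 1.5-fold in Bcor-/- LSK, all lower, and 5 (Spry1, Spred1, Dusp4, Dusp5 and Dusp6) in double knockout LSK. By the same fold alone, 17.9% of all genes tested differed in Bcor-/- LSK (8.9% higher and 9.04% lower) and 32.8% in double knockout LSK (18.1% higher and 14.7% lower). At a p under 0.05 and a fold change above 1.5, 13.2% of all genes tested were called in Bcor-/- LSK (7.2% higher and 6.03% lower) and 28.3% in double knockout LSK (15% higher and 13.3% lower). These shares are background only, since the comparisons chose the genes.

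**Figure D2:**
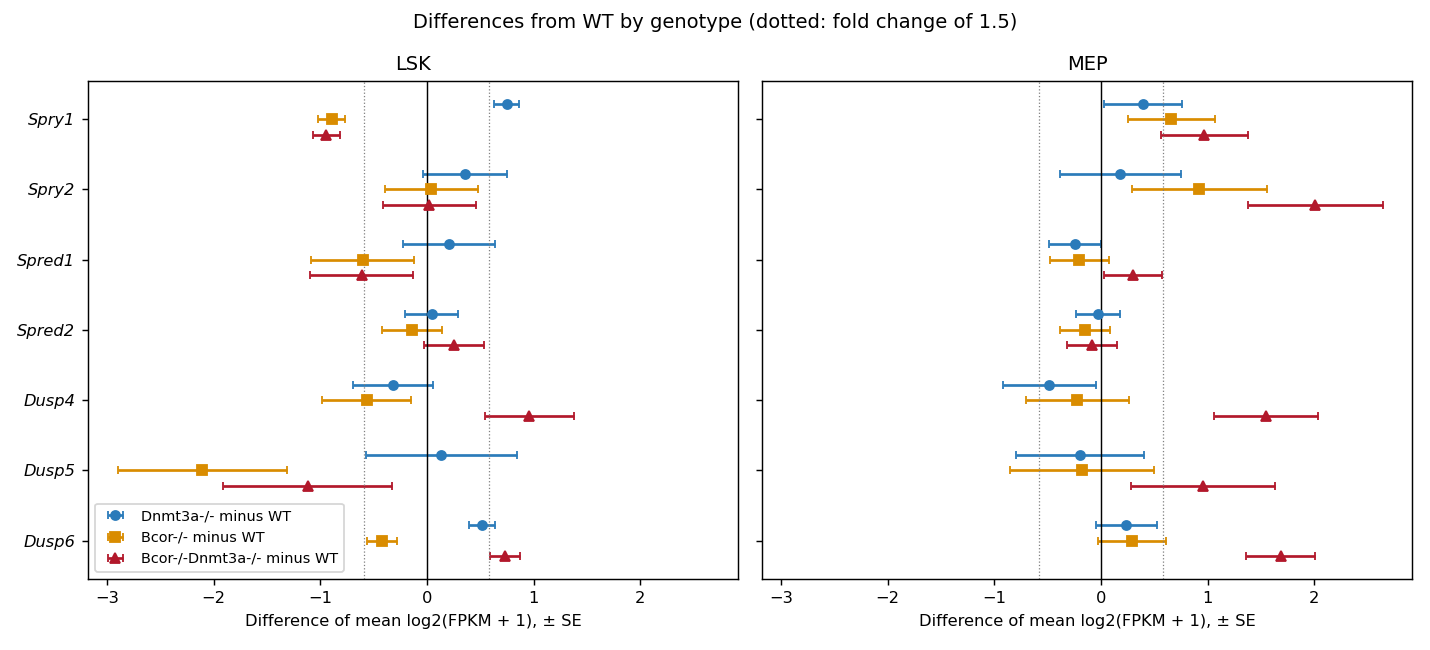
Difference of mean log2(FPKM + 1) from WT with its SE (x axis) for the 7 genes (y axis) in LSK and MEP, with 1 marker per mutant genotype and dotted lines at a fold change of 1.5. Spry1 lies at 0.75, -0.89 and -0.94 in LSK but at 0.39, 0.66 and 0.97 in MEP, and Dusp6 of double knockout mice lies at 0.73 in LSK and 1.68 in MEP.

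The double knockout was also compared with Bcor-/- LSK, a contrast that did not choose the genes. Spry1, whose values in both groups chose the genes, is left out of the count. Of the other 6 genes 2 were called, both higher, and 30.6% of all genes tested were called (15.8% higher and 14.8% lower), so the share is near that of all genes. Dusp6 was 1.16 ± 0.15 higher, a 2.23-fold change of the group means on the log2(FPKM + 1) scale (limma adjusted p = 0.00099). Both double knockout libraries (109.1 and 103.3 FPKM) stood above both Bcor-/- libraries (49.3 and 44.8 FPKM). The Dusp6 difference stayed between 1.09 and 1.23 whichever library was left out. Dusp4 was 1.53 ± 0.46 higher (adjusted p = 0.035) without overlap, but the call was lost without double knockout replicate 2 (0.83) or Bcor-/- replicate 2 (1.23). For Spry2, Spred1, Spred2 and Dusp5 the groups overlapped, and the adjusted limma p was 0.37 to 0.99. With double knockout replicate 1 left out, 5 genes were called, and with replicate 2 left out, 4, since 3 of the genes turned direction with the mouse (Spry2 from 0.95 to -0.99, Spred1 from -1.09 to 1.06 and Dusp5 from 2.73 to -0.75). Spred2, at -0.17 without replicate 1, was called at 0.95 without replicate 2.

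In MEP of single knockout mice none of the 7 genes was called. Between Dnmt3a-/- and WT MEP, 0 of 7 were called by limma, 0 had an unadjusted p under 0.05, and all groups overlapped, while 0.412% of 10933 genes tested were called (0.201% higher and 0.21% lower). Spry1 was at 3.65, 2.16 and 3.76 FPKM in WT, and Dnmt3a-/- MEP had 8.02, 2.99 and 3.38. Only replicate 1 stood above WT, and the difference of 0.39 ± 0.36 fell to 0.02 without it. The same library was also the highest of its group for Spry2 (8.16 against 3.31 and 4.68 FPKM), Dusp4 (0.678 against 0.201 and 0.166), Dusp5 (6.05 against 2.62 and 3.04) and Dusp6 (26.1 against 16.1 and 16.4).

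Between Bcor-/- and WT MEP, 0 of 7 genes were called by limma and 0 had an unadjusted p under 0.05, against 2.76% of all genes called (1.23% higher and 1.53% lower). Spry1 had 4.95 and 6.11 FPKM in Bcor-/- MEP, above all WT libraries, with a difference of 0.66 ± 0.41 (limma adjusted p = 1). Spry2 had 7.29 and 11.4 FPKM in Bcor-/- against 3.87, 4.63 and 4.59 in WT MEP. It did not overlap either, with 0.92 ± 0.63 (adjusted p = 1). Both differences were called when only Bcor-/- and WT libraries entered the fit, a setting that leaves out the widely spread double knockout libraries, and Spry2 was also called without either double knockout library alone. Dusp6, with 18.3 and 21.4 FPKM against 17.4, 13.5 and 17.5 in WT MEP, was above WT by 0.29 ± 0.32. Spred1 (-0.20), Spred2 (-0.15), Dusp4 (-0.22) and Dusp5 (-0.18) overlapped with WT. Here too the share of all genes without overlap was not computed, and the lack of overlap is a description only.

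In double knockout MEP, Spry1, Spry2 and Dusp6 were called out of 6 genes, all higher than WT, and Dusp4 is given apart since it could only be called higher. In this comparison 30.9% of all genes tested were called (18.5% higher and 12.4% lower). Dusp6 had 78.8 and 36.5 FPKM against 17.4, 13.5 and 17.5 in WT MEP. Both libraries were above every MEP library of the other genotypes. The difference was 1.68 ± 0.32, a 3.21-fold change (limma adjusted p = 0.0056), and it was 1.14 to 2.23 whichever library was left out.

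Spry2 had 8.02 and 50.6 FPKM in double knockout MEP against 3.87 to 4.63 in WT. The groups did not overlap and the difference was 2.01 ± 0.63 (adjusted p = 0.040), but replicate 2 carried most of it, since without that library the difference was 0.75 and no longer called. Spry1 had 10.2 and 4.79 FPKM, above the highest WT library at 3.76. Its difference of 0.97 ± 0.41 (adjusted p = 0.0999) lost the call in 7 of the 10 fits that left out 1 library, namely any WT or Bcor-/- library, Dnmt3a-/- replicate 3 or double knockout replicate 1, where the difference was lowest at 0.49. When each genotype was given its own variance, Dusp6 alone stayed called.

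Dusp4 was close to absent from MEP of other genotypes, with 0.914, 0.381 and 1.43 FPKM in WT, 0.678, 0.201 and 0.166 in Dnmt3a-/- and 0.51 and 0.681 in Bcor-/-, and had 8.87 and 1.99 FPKM in double knockout MEP. Both double knockout libraries were above all others (1.55 ± 0.48, adjusted p = 0.040). It passed the filter on low values only through them, with a mean of 1.58 FPKM over 10 libraries and 0.62 without them, so only a rise could be called and the call is no support for a direction. Dusp5 had 3.63 and 22.4 FPKM against 6.09, 1.89 and 6.58 in WT MEP, with overlap (0.95 ± 0.67, adjusted p = 0.30). Without replicate 1 it was called at 2.12, and without replicate 2 it was -0.22. Spred1, with 22.7 and 10.7 FPKM against 12.2, 10.4 and 15.3, and Spred2, with 12.8 and 6.71 against 11.4, 8.48 and 10.1, overlapped with WT (0.30 ± 0.27 and -0.08 ± 0.23). Spred1 was called without double knockout replicate 2, at 0.81.

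Against Bcor-/- MEP, which shares the double knockout libraries with the comparison above, Dusp6 was called out of the same 6 genes, with 27.9% of all genes called (16.5% higher and 11.3% lower). It was 1.39 ± 0.35 higher (limma adjusted p = 0.022), at 0.85 to 1.94 with any 1 library left out, and Dusp4, again open to a rise only through the filter, 1.77 ± 0.53 higher (adjusted p = 0.042), a call that was lost when only these 2 genotypes were fitted. Spry1 (0.31), Spry2 (1.09), Spred1 (0.51), Spred2 (0.07) and Dusp5 (1.13) overlapped with Bcor-/- MEP and were not called. Without double knockout replicate 1, Spry2 (2.35) and Dusp5 (2.30) were called, and without replicate 2, Spred1 (1.01). Dusp6 was the gene of the 7 that was called in all 3 tested comparisons of double knockout cells and under each library left out.

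The 2 double knockout mice differed in the balance of these inhibitors in both LSK and MEP. Dusp5 was 12.7-fold higher in replicate 2 than in replicate 1 in LSK and 6.19-fold in MEP. Spry2 was 4.12-fold higher in replicate 2 in LSK and 6.32-fold in MEP. Spred1 went the other way, 5.14-fold and 2.12-fold higher in replicate 1, as did Spred2 with 2.31-fold and 1.91-fold. Spry1 (1.13-fold and 2.13-fold higher in replicate 1) and Dusp6 (1.06-fold and 2.16-fold) were near equal in LSK, and Dusp4 was higher in replicate 2 in LSK (2.76-fold) and in replicate 1 in MEP (4.46-fold). In all, 6 of the 7 genes had the same direction in both cell types, among them Spry1 and Dusp6 with near equal LSK values. The share of all genes with the same direction was not computed, so this count is a description only. Each value is 1 library of each mouse, so these differences between mice have no replicate check. Cell type markers differed between the 2 mice as well. Csf1r, also a macrophage gene, had 135.9 FPKM in replicate 1 and 15.6 in replicate 2 in LSK, and 69.9 and 9.49 in MEP. The lower and higher erythroid sums were 6086 and 21058 FPKM in LSK and 5300 and 69794 in MEP. Granulocyte sums were close in LSK (8246 and 8405 FPKM). The part of these shifts in the values above was not tested.

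**Figure D3:**
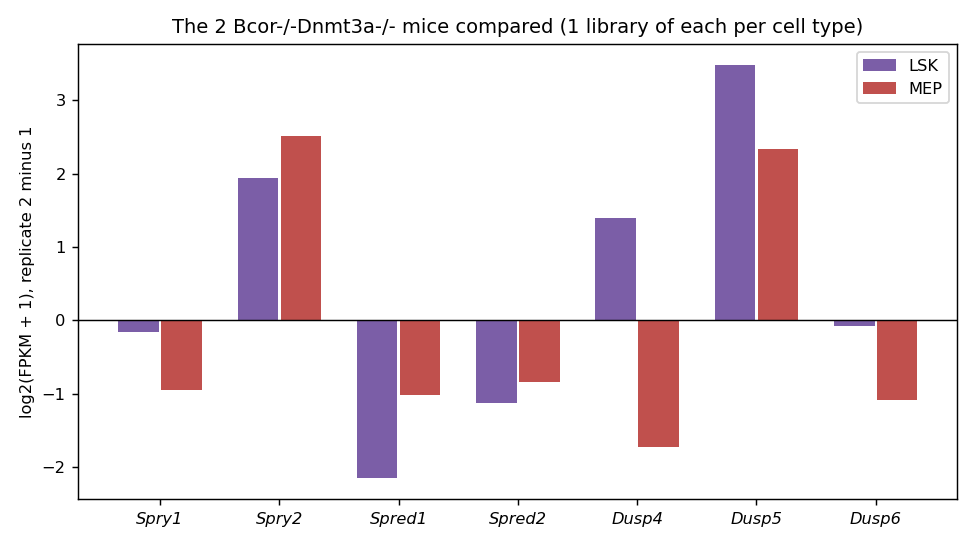
Difference in log2(FPKM + 1) between the 2 double knockout mice (y axis, replicate 2 minus replicate 1) for each gene in LSK and MEP, 1 library per mouse and cell type. Spry2 and Dusp5 are higher in replicate 2 in both cell types, Spred1 and Spred2 in replicate 1, and Dusp4 changes side.

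Over the 10 LSK libraries, log2 levels of Spry2 and Dusp5 had a Pearson r of 0.74 (Spearman rho 0.82), and Spry2 and Spred2 an r of -0.73 (rho -0.15). Over the 10 MEP libraries, Spry2 and Dusp5 had an r of 0.79 (rho 0.37) and Spry2 and Spred2 of -0.63 (rho -0.49), and r was 0.92 for Dusp4 and Dusp6 (rho 0.76), 0.90 for Spred1 and Dusp4 (rho 0.81) and 0.82 for Spry1 and Dusp6 (rho 0.93). These describe 10 libraries that share their genotype groups and 2 widely spread double knockout mice, and are not tested. The 5 genes whose LSK pattern was most like that of Spry1 by Pearson r of log2(FPKM + 1) were Tsc22d1 (0.977), Zc3h14 (0.963), Dock11 (0.963), Nek9 (0.955) and Fzd9 (0.955). In MEP they were Atp6v1g2 (0.953), Pgm2 (0.946), Crlf2 (0.941), Prkci (0.931) and Zdhhc8 (0.927), so no gene was among the 5 in both cell types.

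Beyond the 7 genes, the other Sprouty, Spred and Dusp genes, the upstream receptors and the cascade itself were counted. Of 10 further Sprouty, Spred and MAP kinase phosphatase genes, 8 were tested in LSK. In Bcor-/- LSK 2 were lower (Dusp2 and Spred3) and none higher, and in double knockout LSK 4 were higher and 2 lower, with a median difference of 0.69 against 0.02 over all genes. Over all genes, 7.2% were higher and 6.03% lower in Bcor-/- LSK, and 15% higher and 13.3% lower in double knockout LSK. Dusp10, a phosphatase of JNK and p38, had 1.71 to 5.48 FPKM in WT and 17.4 and 67.1 in double knockout LSK (3.29 ± 0.57, limma adjusted p = 0.0029), and 0.90 to 2.43 against 8.51 and 12.1 FPKM in MEP (2.19 ± 0.31, adjusted p = 0.0017). Dusp10 was higher in both double knockout libraries of each cell type than in any WT library. Dusp8 rose in double knockout LSK (2.06 ± 0.39, adjusted p = 0.0044), where it passed the filter only through the double knockout libraries (0.22 FPKM on average without them) and could only be called higher. Spred3 fell, with 1.04 and 0.69 FPKM against 3.89 to 4.05 in WT (-1.42 ± 0.21, adjusted p = 0.0014). Of 7 tested in MEP, 4 were higher in double knockout cells and none lower, with a median of 0.79, where 18.5% of all genes were higher and 12.4% lower. In Bcor-/- MEP 1 was lower, Spry4, with 0.13 and 0.09 FPKM against 1.26 to 1.85 in WT (-1.18 ± 0.26, adjusted p = 0.29), where 2.76% of all genes were called and 1.53% were lower.

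More receptors and ligands fell than rose in LSK. Of 19 tested, 4 fell and 1 rose in Bcor-/- LSK, and 8 fell and 2 rose in double knockout LSK, with medians of -0.22 and 0.04. The shares of all genes that fell were 6.03% and 13.3%, and those that rose 7.2% and 15%. In Bcor-/- LSK, Tek, an angiopoietin receptor gene (-1.25 ± 0.23, limma adjusted p = 0.022) and Flt3 (-1.01 ± 0.21, adjusted p = 0.027) were lower, and Epor, the erythropoietin receptor, had 10.6 and 19.1 FPKM against 2.99 to 5.11 in WT (1.65 ± 0.29, adjusted p = 0.020). In double knockout LSK, Angpt1, an angiopoietin ligand gene, had 1.39 and 9.89 FPKM against 115.6 to 160.5 in WT (-4.78 ± 0.52, adjusted p = 0.00027), and Tie1 (-4.01 ± 0.39, adjusted p = 0.00015) was lower as well. Of 16 tested in double knockout MEP, 3 rose (1 of them, Csf1, passed the filter only through the double knockout) and 4 fell, where 18.5% of all genes rose and 12.4% fell. Among those that rose was Csf1r, the receptor of macrophage colony stimulating factor, with 69.9 and 9.49 FPKM against 0.42 to 1.5 in WT (3.82 ± 0.71, adjusted p = 0.0050). Csf1r is also a macrophage gene, and the 7 macrophage genes summed to 17.8 to 836.9 FPKM in double knockout MEP against 3.54 to 4.50 in WT.

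Between receptor and Ras, 4 of 19 adaptors, exchange factors and GTPase activators rose in double knockout LSK, where 15% of all genes rose and 13.3% fell, and 8 of 18 in double knockout MEP, where 18.5% rose and 12.4% fell, and none of the list fell in either. The share that rose in LSK is not far above that of all genes. As none fell, the share called in LSK (21.1%) was below the 28.3% of all genes called. In MEP it was 44.4%, against 30.9% of all genes. Rasgrp1, a Ras exchange factor, had 0.27 to 0.80 FPKM in WT and 4.14 and 37.8 in double knockout LSK (3.19 ± 0.67, limma adjusted p = 0.0073), and 0.29 to 0.46 against 3.37 and 13.3 FPKM in MEP (2.5 ± 0.46, adjusted p = 0.0050). Rasgrp1 passed the filter only through the double knockout libraries (0.42 FPKM without them in LSK and 0.45 in MEP) and could only be called higher, and it is 1 of the 4 and 1 of the 8 that rose. It was higher in replicate 2 in both, like Spry2 and Dusp5. Of 15 genes of the Ras to ERK cascade, 2 rose in double knockout LSK, among them Pea15a (1.15 ± 0.18, adjusted p = 0.0016), and none fell. In MEP 2 rose, among them Pea15a (2.06 ± 0.31, adjusted p = 0.0021), and Hras fell (-0.87 ± 0.19, adjusted p = 0.0098). The shares of the cascade called, 13.3% in LSK and 20% in MEP, were below the 28.3% and 30.9% of all genes. In Bcor-/- LSK, 1 of the 19 adaptors and Ras regulators rose, Rasgrp2 (0.77 ± 0.14, adjusted p = 0.022), and of the cascade 1 gene rose and 1 fell, where 7.2% of all genes rose and 6.03% fell. The adaptor share lies below that of all genes called (13.2%) and the cascade share about at it. Pea15a encodes a protein that holds ERK in the cytoplasm.

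Among other genes known to respond to ERK, rises and falls were mixed. In double knockout LSK 3 of 16 rose and 4 fell, with a median of -0.16, and in MEP 1 of 14 rose and 1 fell, with a median of 0.22. Over all genes 15% rose and 13.3% fell in LSK, and 18.5% and 12.4% in MEP, so that the share of calls was above that of all genes in LSK and below it in MEP. Ier3 fell in LSK (-3.23 ± 0.70, limma adjusted p = 0.0085), with 3.32 and 38.3 FPKM against 104.3 to 145.7 in WT, while Phlda1 (1.95 ± 0.39, adjusted p = 0.0060) and Epha2 (3.18 ± 0.73, adjusted p = 0.011) rose. Epha2 had 4.90 and 52.2 FPKM in the 2 double knockout LSK libraries and at most 1.51 in WT, and with 0.78 FPKM on average without the double knockout it too could only be called higher. In Bcor-/- LSK 0 of 16 ERK response genes were called, with a median of -0.42. Of 14 tested in Bcor-/- MEP, 1 was called higher and 1 lower, where 2.76% of all genes were called. In Dnmt3a-/- LSK 1 of 16 was called, Jun, at 1.02 ± 0.45 (adjusted p = 1), where 0.443% of all genes were called, and the median was 0.32. Fosb (1.19), Fos (0.87 ± 0.46), Ier2 (0.77 ± 0.50) and Junb (0.39 ± 0.71) also stood above WT in every Dnmt3a-/- LSK library and were not called. All other tested genes of the list overlapped with WT there, some with a negative difference. The share of all genes without overlap was not computed, so these genes are given as a description only. Of 12 genes of the JNK and p38 cascades, 3 rose and none fell in double knockout LSK, Mapk11 (2.67 ± 0.22), Map3k1 (1.48 ± 0.25) and Map3k5 (1.27 ± 0.20). This is near the 28.3% of all genes called there. In double knockout MEP 4 rose and 1 fell, and 2 of the 4 (Mapk11 and Mapk13) passed the filter only through the double knockout, with 30.9% of all genes called. In Bcor-/- LSK 1 rose and 1 fell, the latter Map2k6 (-0.78 ± 0.16, adjusted p = 0.026), with 13.2% of all genes called. In Dnmt3a-/- MEP no gene of these 6 lists was called. In Bcor-/- MEP 1 of 16 receptors and ligands rose, where 1.23% of all genes rose. No gene of the adaptor, Ras to ERK cascade or JNK and p38 lists was called there.

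**Figure D4:**
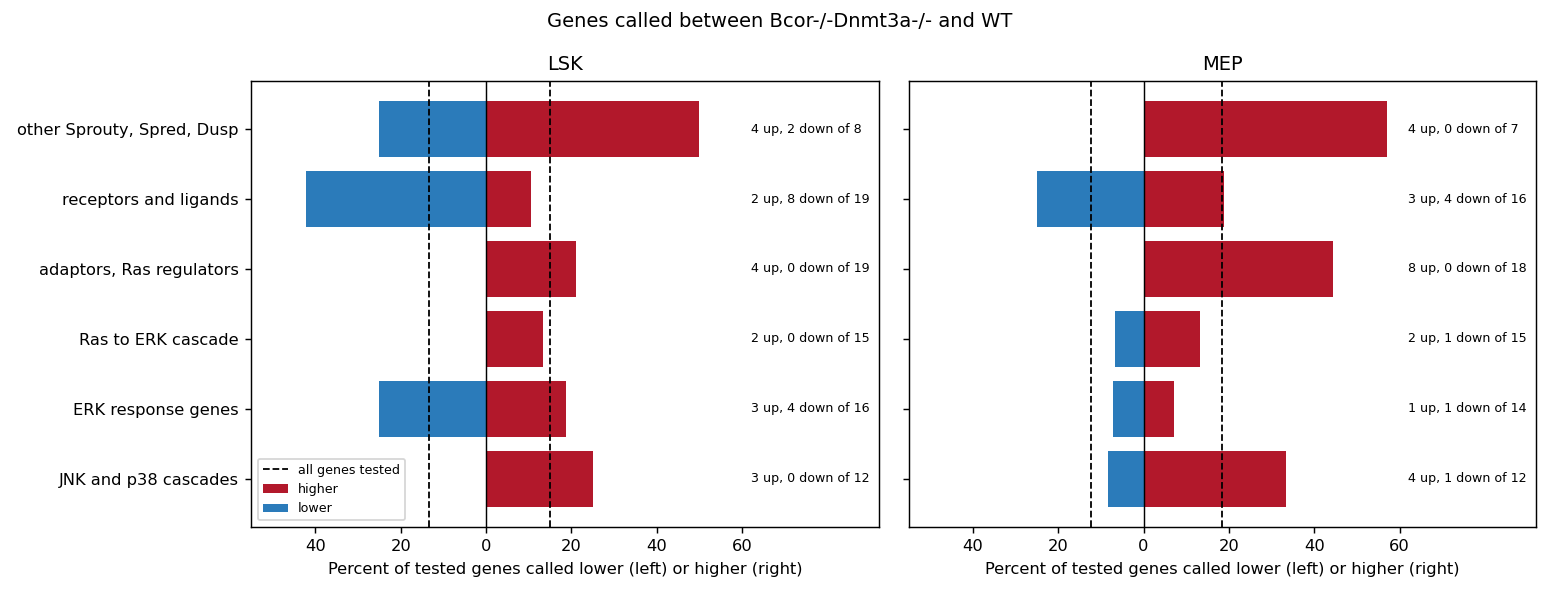
Percent of the tested genes of each pathway list that were called lower (left) or higher (right) between double knockout and WT in LSK and MEP, with the counts beside each bar and dashed lines at the share over all genes tested. Adaptors and Ras regulators have calls in the higher direction only in both cell types, and receptors and ligands more in the lower direction. The higher bars include genes that passed the filter only through the double knockout and could only be called higher. These are, for example, 1 of 4 adaptors and Ras regulators in LSK and 1 of 8 in MEP, and 2 of 4 JNK and p38 genes in MEP.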

How the data were processed

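Total RNA of LSK and MEP cells was extracted from BM and polyA RNA was sequenced. For LSK and for MEP the authors deposited a separate FPKM table of 24315 genes in 10 libraries. The submitters' processing notes name STAR 2.5.1b, SAMtools 1.9, Cufflinks 2.2.1 and the build mm9. The annotation, the use of strand and the scaling between libraries are not given in the sources used here. Since the deposited FPKM come without counts, the number of reads behind each value is unknown and no counting error was computed.

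FPKM were analyzed as log2(FPKM + 1), so fold changes are on that scale and understate those of low genes. A gene was kept where its 10 libraries averaged 1 FPKM or more (11952 in LSK and 10933 in MEP), and all 7 genes passed in both. One limma 3.58.1 model (R 4.3.3) per cell type had 1 mean per genotype and a mean-variance trend, with two-sided tests. Calls used the thresholds of the study, a fold change above 1.5 and, unadjusted, p under 0.05, with Benjamini-Hochberg adjusted p beside. An exact permutation test cannot go below p = 0.1 with 2 or 3 libraries against 3, or below 0.333 with 2 against 2. The procedure was tested on simulated data in which libraries of every genotype had the spread of WT libraries. The double knockout libraries resembled each other less than WT libraries did, so the simulation does not cover their spread. Samples were grouped by the labelled genotype, and replicates are separate mice, except that 1 Bcor-/- label names 2.

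The members and the gene lists were chosen with earlier results of these data known. In each pathway list, genes named with values were up to 3 that changed most, provided that groups did not overlap and the adjusted p was under 0.05. Jun, Junb, Fos, Fosb, Ier2, Camp, Ngp, Pax5, Dusp2, Spred3 in Bcor-/- LSK and Spry4 were named after their values were seen. Some genes of these lists are counted but not reported here by name. Alternatives were leaving out each library, adding 0.1 in place of 1 FPKM, a filter at 5 FPKM or none, quantile scaling, median centring, a fit restricted to the genotypes compared, a replicate block, limma with no trend, 1 variance per genotype, adjusted p for calls and a fold above 2. Positions and promoters are those of GRCm38, matched by symbol, since the files' build was not used here. Dusp4 was not matched to a promoter. Plots used matplotlib 3.10.9 in Python 3.11.15.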

Additional observations from a re-analysis of the deposited data

Results flagged for a closer look

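Spry1 in Bcor-/- and double knockout mice, and Dusp6 in Bcor-/- mice, differed in direction between the 2 cell types. Spry1 was lower than WT in every Bcor-/- LSK library (-0.89 on the log2(FPKM + 1) scale) and higher than WT in every Bcor-/- MEP library (0.66, not called). In double knockout mice it was -0.94 in LSK and 0.97 in MEP, again with every library on that side. The MEP value had a limma adjusted p of 0.0999 and was 0.49 without double knockout replicate 1. It was not called with quantile normalization or median centring. Dusp6 was -0.42 in Bcor-/- LSK and 0.29 ± 0.32 in Bcor-/- MEP, which was not called. In double knockout mice Dusp6 was above WT in every library of both (0.73 and 1.68). In Dnmt3a-/- mice it was 0.52 in LSK, which was not called, and 0.24 in MEP, where it overlapped with WT, was not called and was 0.021 without Dnmt3a-/- replicate 1. The difference between cell types was not tested, because the tables were made separately, and for Spry1 the LSK direction is the one the genes were chosen by. No group had 4 or more libraries, so none was checked for a single outlying library.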

How the results depend on the processing

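Dusp6 kept its direction and its call in the 3 tested double knockout comparisons under all 19 alternatives each, with 1.06 to 1.23 against Bcor-/- LSK, 1.14 to 2.23 against WT MEP and 0.85 to 1.94 against Bcor-/- MEP, and Spry1 kept both in Dnmt3a-/- LSK (0.69 to 0.81), except that its call is lost with the adjusted p or a fold above 2. The count of called genes went from 1 to 0 in Dnmt3a-/- LSK with either of those thresholds, and the number past 1.5-fold from 3 (Bcor-/- LSK) and 5 (double knockout LSK) to 1 each with a fold above 2. In Bcor-/- MEP the count was 2 with only the compared genotypes and 1 with 1 variance per genotype, in place of 0. In double knockout MEP it was, Dusp4 included, 2 (minimum of 5 FPKM) or 1 (1 variance per genotype, where Spry1, Spry2 and Dusp4 lost the call) in place of 4 against WT, and 1 (minimum of 5 FPKM, or only the compared genotypes) in place of 2 against Bcor-/-. The cause of these changes was not tested, except that Dusp4 is not kept at 5 FPKM. Spry1 in double knockout MEP was also not called without a filter, with quantile normalization (0.66) or with median centring (0.81). Those 2 scalings moved the median of all genes between double knockout and WT MEP from 0.02 to -0.17 and -0.14, and turned Spred2 against Bcor-/- MEP from 0.07 to -0.16 and -0.083. Spry2 in double knockout against WT LSK turned from 0.02 to -0.10 and -0.069. Spred2 in Dnmt3a-/- MEP turned from -0.03 to 0.00052 with quantile normalization.

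With 1 library left out at a time, the count of called genes ranged from 1 to 5 against Bcor-/- LSK, from 1 to 2 in Dnmt3a-/- LSK, from 0 to 1 in Bcor-/- MEP, from 3 to 4 in double knockout MEP against WT and from 2 to 3 against Bcor-/- MEP. The sign turned in 33 of 556 such fits of single genes. Between double knockout and Bcor-/- LSK, Dusp5 ranged from -0.75 to 2.73, Spred1 from -1.09 to 1.06, Spred2 from -0.17 to 0.95, Spry1 from -0.16 to 0.055 and Spry2 from -0.99 to 0.95. Between double knockout and WT LSK, Dusp5 ranged from -2.86 to 0.63, Spred1 from -1.69 to 0.46, Dusp4 from 0.27 to 1.66, Spred2 from -0.31 to 0.81 and Spry2 from -0.95 to 0.99, and Spry2 in Bcor-/- LSK ranged from -0.040 to 0.16. Between double knockout and Bcor-/- MEP, Dusp5 ranged from -0.038 to 2.30, Spred1 from -0.0021 to 1.01, Spred2 from -0.35 to 0.49, Spry1 from -0.17 to 0.78 and Spry2 from -0.17 to 2.35, and against WT MEP Dusp5 ranged from -0.22 to 2.12, Spred1 from -0.20 to 0.81 and Spred2 from -0.51 to 0.34. In Dnmt3a-/- cells Dusp5 ranged from -0.048 to 0.39 (LSK) and -0.64 to 0.050 (MEP), Spred2 from -0.054 to 0.12 (LSK) and -0.13 to 0.063 (MEP) and Spry2 from -0.11 to 0.43 (MEP). Dusp5 in Bcor-/- MEP ranged from -0.63 to 0.069. Dusp4 kept its sign but ranged from -0.56 to -0.099 in Dnmt3a-/- LSK and from -0.86 to -0.27 in Bcor-/- LSK. In MEP its range was -0.70 to -0.29 in Dnmt3a-/- and -0.44 to -0.029 in Bcor-/- cells. Where a genotype was left with 1 library, its spread was assumed to be that of the others. Dusp4 could not be fitted in MEP without double knockout replicate 1, since it no longer passed the filter.

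With the replicate number as a block (replicate block), the counts of called genes were the same, 2 against Bcor-/- LSK and 4 in double knockout MEP. Deviations of libraries with the same number correlated at -0.058 to 0.087 in LSK (0 of 13 pairs over 0.1) and at -0.19 to 0.34 in MEP (8 of 13). The numbers were not taken to pair the mice, since not every pair was over 0.1, although most were in MEP. With 2 libraries in a group, small differences could not be detected, and without read counts the precision of low values such as Dusp4 in MEP is not known.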
